A study of Homo sapiens with 10 samples.

Results

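To examine which probe signals crossed the detection limit of the array only when PC-3 cells, a hormone-insensitive human prostate cancer line, were exposed to luteolin, gefitinib or a combination of both, 103 gene symbols were followed across 10 single-color whole-genome arrays. A gene symbol was a member when a probe for it was not called well above background on any of 4 control arrays and was called so on at least 4 of 6 drug-treated arrays. The array carried 19614 gene symbols. Of these, 5376 had a probe that was off on all 4 control arrays, and the members were 1.92% of that number. Because detection on these arrays chose the members, their rise over the controls is described below without a test.

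Luteolin is a plant flavonoid, and gefitinib is an inhibitor of the tyrosine kinase activity of the epidermal growth factor receptor. The control arrays held untreated PC-3 cells at 0 h and cells given the solvent DMSO for 24 h. The drug-treated arrays held cells exposed for 24 h to luteolin, to gefitinib or to both drugs (L+G), each at 60 µM, and every group had 2 arrays labelled as biological replicates. All drugs were dissolved in DMSO, all arrays used RNA from bulk cultures of this line, and no source says whether replicates came from separate cultures, so the p-values measure the spread between these arrays. In bulk RNA, a transcript made by fewer cells and a lower level per cell cannot be told apart.

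The names carried by the scanner files disagree with the deposited labels. Files of the luteolin-labelled arrays carry the name of gefitinib, files of the gefitinib-labelled arrays carry the combination, and files of the L+G-labelled arrays carry luteolin. Groups here follow the labels, and which of both is right was not settled. The names on the control arrays match their labels, so which genes are members does not depend on this, but every statement that names a drug does.

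Agilent software calls a spot well above background when its signal clears the local background by a set margin of noise, and a second, weaker flag when the signal is merely positive and significant. Signal at the detection limit can come from a few transcripts or from imperfect pairing with other labelled cRNA, so crossing that limit is not the same as a silent gene becoming active. The genes behind the members belong to many tissues. They include plasma proteins made by the liver, cytokines, muscle filaments, neuronal proteins and germline antigens, which an epithelial cancer line usually makes at low levels or not at all.

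The 10 arrays were of like quality, with 63.4% to 70.4% of 41000 probes well above background and 0 saturated spots. The signal at the 75th percentile of each array, which served as the scale, was 1177 to 1402 on the control arrays, 1041 and 1173 on the luteolin-labelled arrays, 628 and 651 on the gefitinib-labelled arrays, and 540 and 865 on the L+G-labelled arrays. Scaled values of drug-treated arrays were therefore raised relative to the signals as deposited, and lower limits are given on both scales. The lowest probe signal that counted as well above background, used as the detection floor, lay between 15.9 and 27.4. The epithelial markers KRT8, KRT18, CDH1 and EPCAM (named TACSTD1 on the array) were well above background on all 10 arrays. KLK3 (prostate-specific antigen) had 2 probes off on all 10 and 1 that read 13030 to 22098. Markers of other cell types were mixed. In the neuroendocrine list CHGA and ENO2 were on all 10 arrays, SYP was on 2 control and 2 drug-treated arrays, and both NCAM1 probes were off on all 10. In the endothelial list PECAM1 was on all 10 and CDH5 was on 1 control array. VWF had a probe off on all 10 arrays and another on 1 drug-treated array. In the leukocyte list both PTPRC probes were off on all 10 arrays, but CD14, CD68 and 1 of 2 CD3E probes were on all 10. In the fibroblast list DCN was off on all 10, COL1A1 was on 4 control and 5 drug-treated arrays and LUM on 3 and 5. In the erythroid list HBB was off on all 10 and HBA1 was on 4 control and 5 drug-treated arrays. The part of other cells in the members' signals was not tested.

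The members were dim. The highest signal of a member on a control array was 30.8, and the median over members of the highest control signal was 17.3. On the drug-treated arrays the highest signal ranged from 28.1 to 691 with a median of 83.2. For 38 members it exceeded 100, and for 30 members it stayed under 50. In 24 members every drug-treated array was brighter than every control array, among them KLF6, SPDYA, RHOB, RRAD, CCL20 and ACTA1.

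Not all members were at zero before treatment. On all 4 control arrays, 69 of the 103 were positive and significant by the weaker flag, and 9 were so on none. Those 9 include KCTD4, FAP, IFNA5, STMN2 and C7orf45. The rule also concerns single probes, and 16 members had another probe above background on all 4 control arrays. Being a member therefore says that a probe crossed the detection limit with the drugs, and not that the gene was silent without them.

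**Figure D1:**
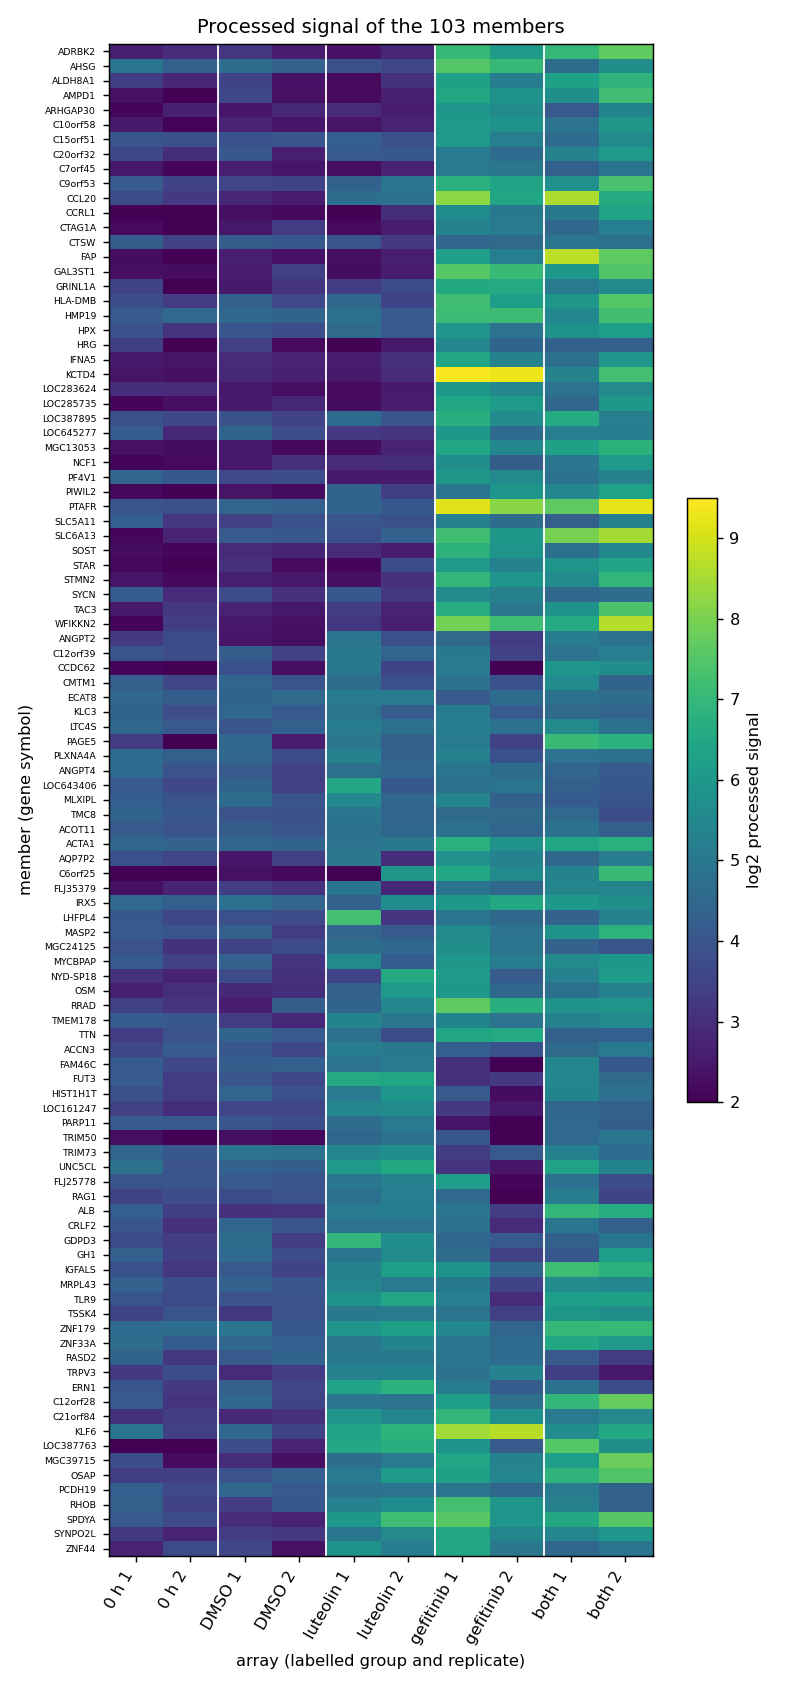
Log2 processed signal of each of the 103 members (rows, ordered by how many luteolin-labelled, gefitinib-labelled and L+G-labelled arrays detected them) on the 10 arrays (columns; "both" is L+G). The upper 40 rows were not detected on the luteolin-labelled arrays and were detected on the other drug-treated arrays, and the 11 rows at the bottom were detected on all 6.

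The upstream sequences of 6 members are shown because these 6 had the 3 largest differences in each direction between the luteolin-labelled and gefitinib-labelled pairs, which is the main division among the members. Each line gives the 250 bases before the first start site that RefSeq lists, 5′ to 3′, on the assembly GRCh38.p14, with CpG dinucleotides in capitals. The windows lie at chr13:45201046-45201295 (minus strand, KCTD4), chr17:50834334-50834583 (plus, WFIKKN2), chr22:30574666-30574915 (minus, GAL3ST1), chr6:41039222-41039471 (minus, UNC5CL), chr19:5851450-5851699 (minus, FUT3) and chr12:3873400-3873649 (minus, PARP11). The first 3 were lower, and the last 3 higher, on the luteolin-labelled arrays.
KCTD4: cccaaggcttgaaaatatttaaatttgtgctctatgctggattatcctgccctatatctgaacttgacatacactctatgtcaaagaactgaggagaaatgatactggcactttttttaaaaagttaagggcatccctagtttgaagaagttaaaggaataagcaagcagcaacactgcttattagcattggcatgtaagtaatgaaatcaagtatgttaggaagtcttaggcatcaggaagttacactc
WFIKKN2: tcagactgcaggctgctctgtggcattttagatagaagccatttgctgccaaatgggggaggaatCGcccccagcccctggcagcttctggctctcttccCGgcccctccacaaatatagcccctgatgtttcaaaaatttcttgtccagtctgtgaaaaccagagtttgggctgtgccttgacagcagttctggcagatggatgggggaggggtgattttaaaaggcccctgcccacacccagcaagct
GAL3ST1: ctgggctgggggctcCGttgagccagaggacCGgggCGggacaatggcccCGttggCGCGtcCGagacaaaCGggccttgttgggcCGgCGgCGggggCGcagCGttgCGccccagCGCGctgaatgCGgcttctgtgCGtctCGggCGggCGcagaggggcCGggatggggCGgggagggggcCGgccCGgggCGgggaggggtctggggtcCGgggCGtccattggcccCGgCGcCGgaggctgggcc
UNC5CL: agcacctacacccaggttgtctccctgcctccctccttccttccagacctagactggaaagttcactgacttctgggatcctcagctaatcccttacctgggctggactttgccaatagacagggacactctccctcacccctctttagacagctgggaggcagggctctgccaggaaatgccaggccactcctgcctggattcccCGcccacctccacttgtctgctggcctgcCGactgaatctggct
FUT3: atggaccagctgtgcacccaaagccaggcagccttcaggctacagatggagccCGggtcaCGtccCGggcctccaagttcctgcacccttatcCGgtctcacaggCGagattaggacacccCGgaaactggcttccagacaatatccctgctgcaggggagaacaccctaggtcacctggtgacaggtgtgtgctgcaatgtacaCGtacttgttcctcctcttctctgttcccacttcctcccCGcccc
PARP11: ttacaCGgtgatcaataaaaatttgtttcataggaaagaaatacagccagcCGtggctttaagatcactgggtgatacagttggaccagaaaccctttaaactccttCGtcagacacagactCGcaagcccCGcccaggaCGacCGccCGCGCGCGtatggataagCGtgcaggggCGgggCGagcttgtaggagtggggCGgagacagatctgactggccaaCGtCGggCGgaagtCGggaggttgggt
The window of KCTD4 held 0 CpG dinucleotides, WFIKKN2 and UNC5CL had 2 each, FUT3 had 8, PARP11 had 19 and GAL3ST1 had 31, beside a median of 11 over 27305 RefSeq promoters of the same length. A GC box (GGGCGG, either strand) was found in UNC5CL, FUT3, PARP11 and GAL3ST1, and 42.3% of all promoters hold that motif. The AHR core motif GCGTG was found in PARP11 and is held by 31.9% of all promoters. None of the 6 windows held TATAAA, which 11.1% of all promoters hold, and none held the cyclic AMP response element TGACGT, the AP-1 motif TGANTCA, the ATF4 and CHOP motif TGATGNAA or the E-box CACGTG on either strand. A comparison over all members was void, because only 67 of the 103 had a promoter in the table, although 93 matched a RefSeq gene.

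Next, the drug-treated pairs were compared by detection. The L+G-labelled arrays detected 101 and 94 of the 103 members, the gefitinib-labelled arrays 93 and 74, and the luteolin-labelled arrays 58 and 40. Of all probes, these arrays detected 69.8% and 65.4%, 63.4% and 63.4%, and 68.9% and 63.7%, in that order. The detection floor was 15.9 on both L+G-labelled arrays, 21.6 and 17.2 with gefitinib, and 20.8 and 27.4 with luteolin. HRG, detected with L+G at 20.1 and 19.5, lay under both luteolin floors. Counts of detection thus depend on the floor as well as the signal, and the part of the floor was not tested. Both arrays of the pair detected 94 members with L+G, 73 with gefitinib and 35 with luteolin. The commonest pattern, in 40 members, was detection on all gefitinib-labelled and L+G-labelled arrays and on neither luteolin-labelled array. By contrast, 9 members were off on both gefitinib-labelled arrays only, 2 were off on both L+G-labelled arrays only, and 11 were detected on all 6. The other 41 were detected on a single array of at least 1 pair. By exact number, 66 members were detected on 4 drug-treated arrays, 26 on 5 and 11 on 6.

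**Figure D2:**
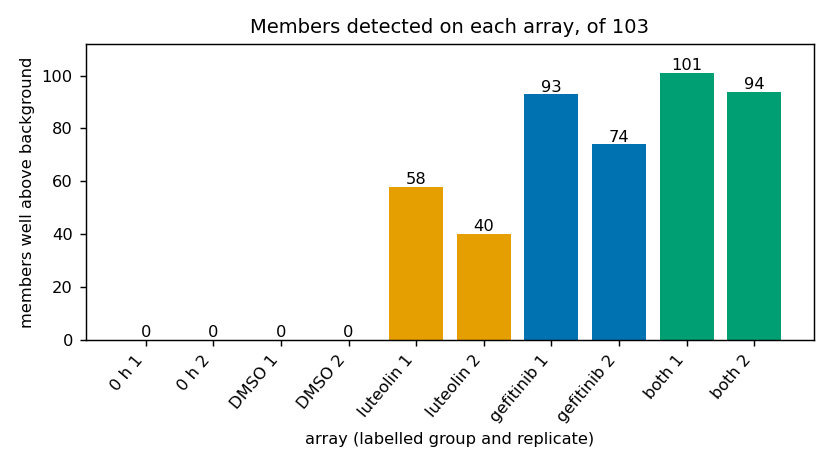
Number of the 103 members well above background on each array, by labelled group and replicate. The control arrays are at 0 by the rule, the luteolin-labelled arrays detected 58 and 40, and the L+G-labelled arrays 101 and 94.

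By the file names these patterns read differently. By the labels, the pairs that detected the 40 members share gefitinib. By the names on the files, the same pairs would be the combination and luteolin, and share luteolin.

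The lower limit of the drug-treated over control difference, which replaces each control signal under the detection floor by the floor, had a median of 1.31 on the log2 scale of scaled signals and ranged from 0.15 to 3.44. It reached 1 in 65 members. On the signals as deposited, the median was 0.58, 29 members reached 1 and 9 were at or below 0. The members with the highest limits were PTAFR, KLF6, SPDYA, CCL20 and SLC6A13.

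PTAFR encodes the receptor for platelet-activating factor, a lipid mediator of inflammation. Its probe, at chr1:28348741-28348800 on the hg18 assembly used by the array, read 15.8 and 14.5 at 0 h, 21.6 and 19.5 with DMSO, 20.9 and 16.8 with luteolin, 564 and 290 with gefitinib, and 198 and 614 with L+G. The luteolin-labelled arrays lay within the range of the controls, and all gefitinib-labelled and L+G-labelled arrays lay above it. The gefitinib-labelled pair was at least 35.2-fold brighter than DMSO after scaling and at least 17.1-fold as deposited. A second PTAFR probe met the rule as well, reading 6.85 to 10.7 on the controls, 14.5 and 6.08 with luteolin, 199 and 115 with gefitinib, and 89.4 and 223 with L+G.

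KCTD4, a protein with a potassium channel tetramerisation domain, read 5.3 and 5 at 0 h, 7.1 and 6.27 with DMSO, 5.56 and 7.79 with luteolin, 691 and 639 with gefitinib, and 41 and 152 with L+G. The gefitinib-labelled pair stood far above all other arrays, at least 57.9-fold over DMSO after scaling and at least 28.1-fold as deposited. Its other probe, which missed the rule with 3 arrays detected, read 4.26 to 6.39 on the controls, 125 and 96.5 with gefitinib, and 16.7 and 28.8 with L+G.

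**Figure D3:**
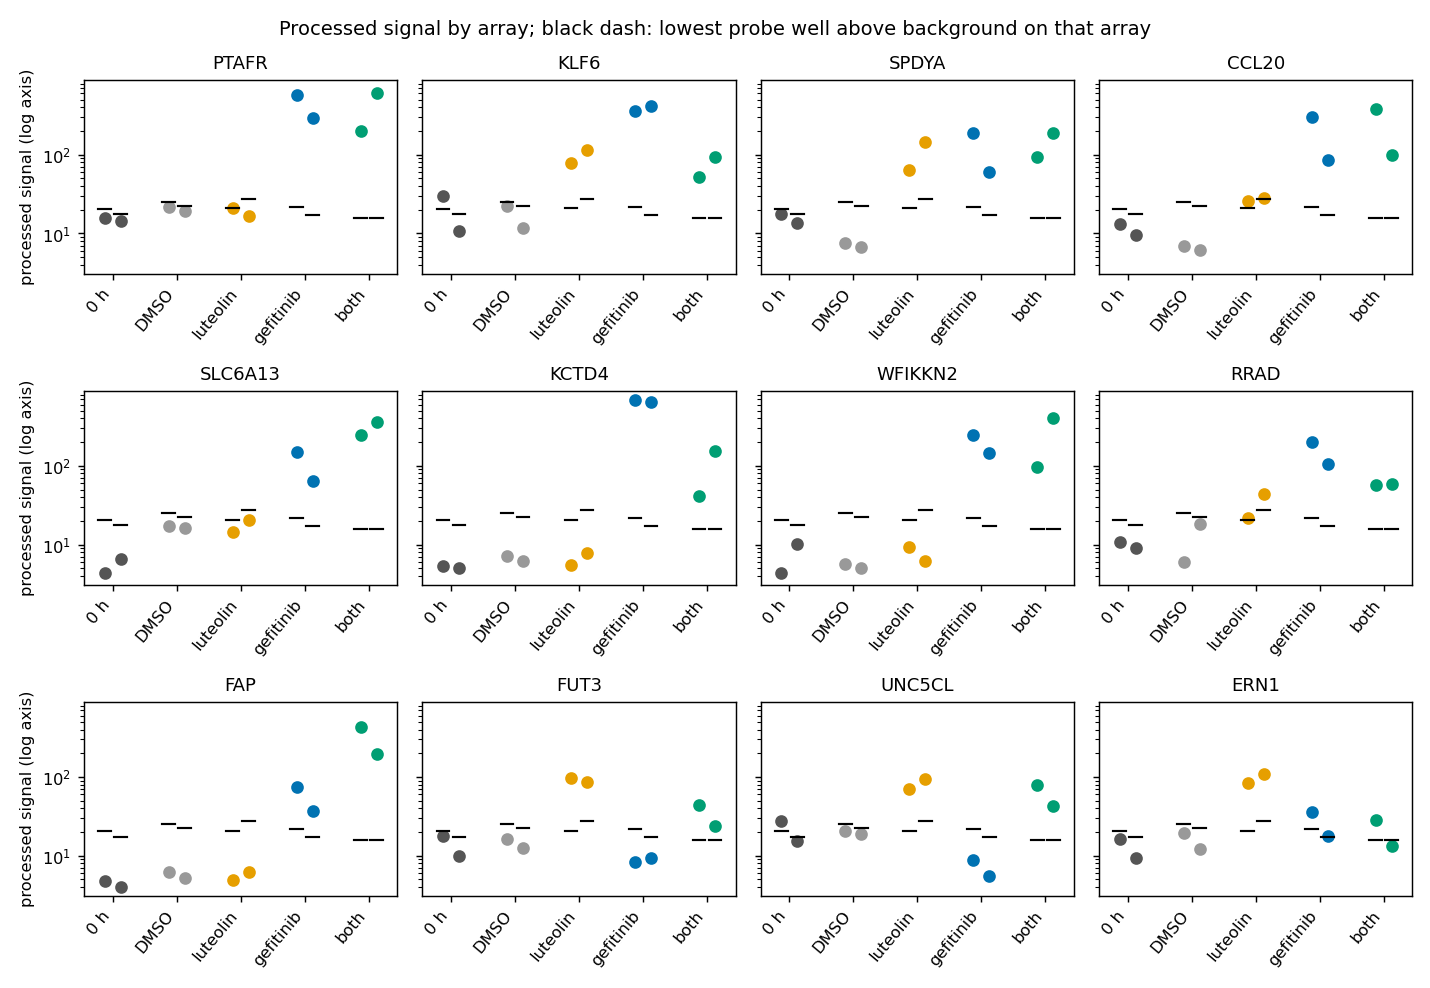
Processed signal (log axis) of 12 members on each array by labelled group ("both" is L+G); each point is an array, and the black dash beside it is the lowest probe signal well above background on that array. PTAFR, KCTD4, WFIKKN2, SLC6A13 and FAP stay near or under the dash with luteolin, whereas FUT3 and UNC5CL do so with gefitinib, and KLF6 and SPDYA lie above it in all 3 drug-treated pairs.

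The members were grouped by role, and those named by role alone were chosen after their values had been seen, so counts by role are descriptions. Secreted signals and their antagonists made up 11 members. Both arrays of the pair detected 94 of all 103 members with L+G, 73 with gefitinib and 35 with luteolin. Of the 11, 10 were detected on both L+G-labelled arrays, 8 on both gefitinib-labelled arrays and 1 on both luteolin-labelled arrays. That member was GH1, growth hormone, which read 10.4 to 24.4 on the controls, 30.7 and 48.3 with luteolin, 25.4 and 10.9 with gefitinib, and 16.6 and 72.8 with L+G.

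CCL20, a chemokine that attracts dendritic cells and lymphocytes, read 13.1 and 9.53 at 0 h, 6.94 and 6.1 with DMSO, 25.9 and 28.3 with luteolin, 298 and 85.3 with gefitinib, and 384 and 98.4 with L+G. Every drug-treated array exceeded every control array, and replicate 1 was the brighter in both the gefitinib-labelled and the L+G-labelled pair. WFIKKN2, a secreted antagonist of myostatin, read 4.35 and 10.2 at 0 h, 5.6 and 5.03 with DMSO, 9.26 and 6.28 with luteolin, 246 and 145 with gefitinib, and 97.9 and 409 with L+G. Its luteolin-labelled arrays lay within the range of the controls, and its other drug-treated arrays lay far above it. OSM, the cytokine oncostatin M, was detected on 5 arrays and read 6.29 to 8.07 on the controls, 20.2 and 67.2 with luteolin, 63.7 and 22.7 with gefitinib, and 27.5 and 38.3 with L+G. One luteolin-labelled array was as bright as the brighter gefitinib-labelled array and the other was not detected.

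SOST, the bone protein sclerostin that inhibits WNT signals, read 4.26 to 7.41 on the controls, 7.57 and 6.08 with luteolin, 113 and 59 with gefitinib, and 26.7 and 44.9 with L+G. TAC3, the precursor of neurokinin B, read 5.6 to 9.28 on the controls, 10.4 and 6.68 with luteolin, 99.2 and 31.4 with gefitinib, and 57.8 and 165 with L+G. IFNA5, an interferon alpha gene in a cluster of near-identical genes, read 5.31 to 7.5 on the controls, 5.91 and 8.22 with luteolin, 85.6 and 40.9 with gefitinib, and 27.2 and 60.6 with L+G. Each of these was off on both luteolin-labelled arrays, and for IFNA5 the near-identical copies leave the gene behind the signal uncertain. Both angiopoietins were dim, with ANGPT2 reaching 36.5 and ANGPT4 30.3, and the luteolin-labelled and L+G-labelled pairs of ANGPT4 overlapped the controls.

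The 6 plasma proteins, which the liver normally secretes, were all detected on both L+G-labelled arrays, as were 94 of all 103 members. ALB, serum albumin, read 18.7 and 10.5 at 0 h, 8.45 and 8.94 with DMSO, 33.1 and 35.9 with luteolin, 31.1 and 9.98 with gefitinib, and 126 and 99.1 with L+G. The L+G-labelled arrays were the brightest, and one of the gefitinib-labelled arrays lay within the controls. IGFALS, which stabilises insulin-like growth factors in blood, read 9.06 to 17.3 on the controls, 38.7 and 73.3 with luteolin, 57.1 and 22.7 with gefitinib, and 145 and 110 with L+G, again brightest with L+G. AHSG, fetuin-A, which binds calcium phosphate, differed from both and read 20 to 30.1 on the controls, 14.6 and 12 with luteolin, 181 and 130 with gefitinib, and 25.3 and 52.3 with L+G. Its luteolin-labelled arrays were dimmer than every control array.

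Among cell surface receptors and proteins of immune cells, HLA-DMB, which helps load peptides on class II histocompatibility molecules, read 10.2 to 19.9 on the controls, 23.2 and 11.4 with luteolin, 146 and 71.5 with gefitinib, and 62.7 and 178 with L+G. TLR9, a receptor for unmethylated DNA, showed another order and read 12.9 to 15.3 on the controls, 58.3 and 84.8 with luteolin, 37.3 and 7.4 with gefitinib, and 74.8 and 77.1 with L+G. Its gefitinib-labelled replicates fell on opposite sides of the controls. Both genes are typical of leukocytes, of whose markers PTPRC was off and CD14 and CD68 were on in all 10 arrays.

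Of the 8 intracellular signalling members, RRAD, a small GTPase that restrains calcium channels in muscle and heart, read 10.9 and 8.97 at 0 h, 5.95 and 18.5 with DMSO, 21.5 and 44.3 with luteolin, 198 and 106 with gefitinib, and 56.7 and 58.8 with L+G. RHOB, an endosomal GTPase known for rapid induction by stress, was detected on all 6 drug-treated arrays and read 10.3 to 19.3 on the controls, 38.4 and 50 with luteolin, 155 and 60.7 with gefitinib, and 38.6 and 19.8 with L+G. The dimmest drug-treated array of RHOB stood just above the brightest control. RASD2, a GTPase of the striatum, was off on both L+G-labelled arrays and read 9.25 to 21.2 on the controls, 32.6 and 32.2 with luteolin, 30.9 and 24.7 with gefitinib, and 17.2 and 9.9 with L+G. Its other probe was on 4 control and 5 drug-treated arrays and did not rise. It read 24 to 111 on the controls, 50 and 19.4 with luteolin, 34.9 and 28.8 with gefitinib, and 36.6 and 21.6 with L+G. With ARHGAP30, a GTPase-activating protein, the small GTPases and their regulators gave 4 members, 3.88% of the members beside 1.08% of all gene symbols off on the controls.

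ADRBK2 (GRK3), a kinase that desensitises G-protein-coupled receptors, read 6.35 and 7.81 at 0 h, 9.09 and 6.01 with DMSO, 5.19 and 7.03 with luteolin, 129 and 71.2 with gefitinib, and 127 and 202 with L+G. ERN1 (IRE1), a sensor of unfolded proteins in the endoplasmic reticulum, was brightest with luteolin and read 16.1 and 9.39 at 0 h, 19.2 and 12.1 with DMSO, 83.4 and 111 with luteolin, 35.6 and 18 with gefitinib, and 28.1 and 13.3 with L+G. UNC5CL, a death-domain protein of the UNC5 family, read 27.7 and 15.2 at 0 h, 20.5 and 18.6 with DMSO, 69.5 and 94.8 with luteolin, 8.84 and 5.52 with gefitinib, and 79.5 and 42.2 with L+G. For UNC5CL the gefitinib-labelled arrays lay below every control array and the other drug-treated arrays above, which is the reverse of the order in ADRBK2 for luteolin and gefitinib.

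The 6 transcription factors included KLF6, a zinc finger factor of the immediate early class, whose member probe lay at chr10:3808811-3808870. It read 29.8 and 10.6 at 0 h, 22.6 and 11.6 with DMSO, 79.4 and 114 with luteolin, 355 and 415 with gefitinib, and 51.5 and 92.1 with L+G. All 6 drug-treated arrays exceeded the controls, and the gefitinib-labelled pair was the brightest, at least 33.4-fold over DMSO after scaling and at least 16.2-fold as deposited. IRX5, a homeobox factor, read 19.3 to 26.9 on the controls, 19.9 and 49.7 with luteolin, 64.2 and 92.1 with gefitinib, and 64.6 and 52.5 with L+G. One luteolin-labelled array of IRX5 lay within the controls. The other zinc finger genes on the list, ZNF33A, ZNF44 and ZNF179 (RNF112), were 2.91% of the members and 1.47% of the gene symbols off on the controls. ZNF44 was detected on all 6 arrays and read 5.08 to 12.7 on the controls, 58.1 and 35.5 with luteolin, 89.8 and 31.4 with gefitinib, and 23.1 and 29.9 with L+G, while ZNF179, brightest with L+G, read 16.7 to 30.8 on the controls, 59.9 and 75.6 with luteolin, 45.4 and 21.9 with gefitinib, and 127 and 131 with L+G.

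All 4 muscle proteins were detected on both gefitinib-labelled and both L+G-labelled arrays, as were 66 of all 103 members. ACTA1, skeletal muscle actin, read 22.1 and 20.6 at 0 h, 21.9 and 21 with DMSO, 29.2 and 32 with luteolin, 109 and 57.3 with gefitinib, and 88.3 and 108 with L+G. SYNPO2L, an actin-binding protein of heart and skeletal muscle, was detected on all 6 arrays and read 6.64 to 10.1 on the controls, 30.4 and 46.7 with luteolin, 84.9 and 43.4 with gefitinib, and 43 and 60.4 with L+G. In both genes every drug-treated array was brighter than every control array. AMPD1, the muscle form of adenosine monophosphate deaminase, was off with luteolin and read 4.01 to 12.5 on the controls, 4.54 and 6.23 with luteolin, 90.6 and 57.9 with gefitinib, and 53.3 and 147 with L+G. The contractile and cytoskeletal muscle genes ACTA1, SYNPO2L and TTN were 2.91% of the members and 0.502% of the gene symbols off on the controls.

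Of the neuronal members, HMP19 (NSG2), a protein of neuronal endosomes, read 17.6 to 23.5 on the controls, 26.5 and 17.5 with luteolin, 141 and 142 with gefitinib, and 44.8 and 151 with L+G. STMN2, a microtubule regulator of growing axons, read 4.49 to 6.35 on the controls, 5 and 8.32 with luteolin, 125 and 60.4 with gefitinib, and 49 and 123 with L+G. Both were off with luteolin. LHFPL4, which helps cluster GABA receptors at synapses, owed its highest value to a single array and read 12.4 to 16.7 on the controls, 154 and 8.85 with luteolin, 29.3 and 23.3 with gefitinib, and 20.7 and 39.4 with L+G. PCDH19, a protocadherin, was detected on all 6 arrays, but its signals of 28.3 and 28.9 with luteolin, 29.5 and 22.8 with gefitinib, and 34.4 and 20 with L+G touched the controls at 12.5 to 22.2.

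All 10 germline proteins were detected on both L+G-labelled arrays, as were 94 of all 103 members. SPDYA, an activator of cyclin-dependent kinases in meiosis, had its probe at chr2:28916750-28916809 and read 17.7 and 13.5 at 0 h, 7.67 and 6.68 with DMSO, 63.7 and 145 with luteolin, 188 and 61 with gefitinib, and 92.5 and 187 with L+G. Its 3 drug-treated pairs overlapped one another and all lay above the controls. PAGE5, a cancer-testis antigen, was brightest with L+G and read 3.83 to 23.4 on the controls, 31.7 and 19.7 with luteolin, 33.5 and 11 with gefitinib, and 137 and 110 with L+G. PIWIL2, which silences transposons in germ cells, read 3.74 to 5.31 on the controls, 21.5 and 10.5 with luteolin, 30.7 and 61.4 with gefitinib, and 44.1 and 81.7 with L+G, and every drug-treated array exceeded every control. HIST1H1T (H1-6), the testis form of linker histone H1, was off with gefitinib and read 10.2 to 21.8 on the controls, 34.5 and 60.8 with luteolin, 17.1 and 4.76 with gefitinib, and 41.3 and 26.6 with L+G. CTAG1A, the antigen NY-ESO-1, was off with luteolin and read 3.76 to 9.83 on the controls, 4.56 and 5.97 with luteolin, 41 and 33.9 with gefitinib, and 23.3 and 37.5 with L+G, and its near-identical copy leaves the source of the signal uncertain.

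Among transporters and channels, SLC6A13, which carries GABA, read 4.3 and 6.57 at 0 h, 17.1 and 16.4 with DMSO, 14.3 and 20.5 with luteolin, 148 and 64.1 with gefitinib, and 249 and 363 with L+G. The L+G-labelled arrays were the brightest, and luteolin overlapped the controls. TRPV3, a heat-sensitive cation channel of keratinocytes, was off with L+G and read 9.68 and 13.9 at 0 h, 7.44 and 10.1 with DMSO, 39 and 42 with luteolin, 27.6 and 40.4 with gefitinib, and 10.6 and 5.58 with L+G. By their member probes alone, TRPV3 and RASD2 were the 2 members detected on all luteolin-labelled and gefitinib-labelled arrays and on neither L+G-labelled array.

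The enzymes were divided between both main patterns. GAL3ST1, which sulfates galactolipids to sulfatide, read 4.9 and 4.73 at 0 h, 6.02 and 10.7 with DMSO, 4.79 and 6.05 with luteolin, 183 and 133 with gefitinib, and 64.3 and 178 with L+G. FUT3, the fucosyltransferase that makes Lewis blood group antigens, showed the opposite order and read 17.6 and 10 at 0 h, 16.2 and 12.4 with DMSO, 96.1 and 86 with luteolin, 8.24 and 9.44 with gefitinib, and 44.2 and 23.9 with L+G. FAP, a cell surface protease of activated fibroblasts, was brightest with L+G and read 4.73 and 4.01 at 0 h, 6.24 and 5.15 with DMSO, 4.94 and 6.17 with luteolin, 74.8 and 36.9 with gefitinib, and 433 and 198 with L+G. Of the fibroblast markers, DCN was off on all 10 arrays, and COL1A1 and LUM were on most of them. STAR, which brings cholesterol into mitochondria for steroid synthesis, was off with luteolin and read 3.7 to 8.47 on the controls, 4.26 and 13.1 with luteolin, 64.7 and 40.5 with gefitinib, and 59.2 and 82.5 with L+G. ALDH8A1, an aldehyde dehydrogenase, was also off with luteolin and read 5.17 to 11.4 on the controls, 4.58 and 8.59 with luteolin, 77.9 and 35.5 with gefitinib, and 78.2 and 118 with L+G.

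TRIM50 and TRIM73, which are related tripartite motif genes, were both off with gefitinib. TRIM50 read 3.47 to 4.99 on the controls, 22.9 and 28.3 with luteolin, 16.8 and 4.07 with gefitinib, and 23.6 and 30.6 with L+G, and TRIM73 read 16.5 to 29.1 on the controls, 44.5 and 51.5 with luteolin, 9.95 and 17.3 with gefitinib, and 39.2 and 24.8 with L+G. Near-identical copies of TRIM73 leave its signal uncertain, and its control arrays were near the detection floor. No role was given to 25 members, and 22 members carried names of uncharacterised loci, 21.4% of the members beside 20.1% of the gene symbols off on the controls. Of these, LOC387763 was detected on all 6 arrays and read 3.48 to 13.7 on the controls, 92.2 and 105 with luteolin, 57.5 and 17.8 with gefitinib, and 185 and 51.9 with L+G. OSAP (MGARP), a mitochondrial protein, was also detected on all 6 and was brightest with L+G, reading 10.5 and 10.5 at 0 h, 15 and 19.8 with DMSO, 35 and 66.8 with luteolin, 77.1 and 43 with gefitinib, and 118 and 177 with L+G.

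The threshold of the rule lay among dim genes. Just inside it with 4 arrays detected and the lowest limits, PARP11, an ADP-ribosyltransferase, read 13.9 to 17.8 on the controls, 25.8 and 34.6 with luteolin, 5.36 and 3.83 with gefitinib, and 23.5 and 18.6 with L+G. HRG, a plasma glycoprotein, read 3.88 to 10.8 on the controls, 4.15 and 5.57 with luteolin, 44.9 and 21.5 with gefitinib, and 20.1 and 19.5 with L+G, and C7orf45 read 4.39 to 6.15 on the controls, 4.88 and 6.76 with luteolin, 33.5 and 31.5 with gefitinib, and 19.6 and 30.2 with L+G. Just outside it, with 3 arrays detected, SLC13A3, a transporter of dicarboxylates, read 4.04 to 5.75 on the controls, 21 and 22.1 with luteolin, 51.5 and 16.5 with gefitinib, and 129 and 150 with L+G. TF, transferrin, read 6.37 to 12.2 on the controls, 29.6 and 26 with luteolin, 28.8 and 9.08 with gefitinib, and 232 and 155 with L+G, and C10orf79 read 4.61 to 6.47 on the controls, 12.6 and 7.1 with luteolin, 69.2 and 18.9 with gefitinib, and 116 and 181 with L+G.

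Other probes of the same genes were read beside the member probes. The rule was applied to every probe, so the other probes had either met it or missed it, and they are no independent check. Of the 103 members, 57 had 1 probe on the array and 46 had more. Among the 46, 22 had no other probe above background on any control array, 16 had another probe above background on all 4, and 5 (ADRBK2, ALDH8A1, C6orf25, PTAFR and SLC6A13) had a second probe that met the rule. Some of the 22 also had no other probe above background on any drug-treated array, as given below. For the 16, the member probe was off in cells that already gave signal from the gene at another position.

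KLF6 was such a gene. Its brightest probe, at chr10:3811387-3811446, read 4976 and 6025 at 0 h, 8181 and 6989 with DMSO, 18580 and 26853 with luteolin, 61144 and 41701 with gefitinib, and 12246 and 19681 with L+G. At both probes all 6 drug-treated arrays exceeded the controls and the gefitinib-labelled pair was the brightest. The KLF6 probe at chr10:3811779-3812353 showed the same order, but that at chr10:3808418-3808477 did not. The latter read 37.6 to 138 on the controls, 250 and 87.2 with gefitinib, and 86.6 and 76.8 with L+G. There DMSO replicate 1 was brighter than replicate 2 of luteolin and of gefitinib, and brighter than both L+G-labelled arrays. The other RRAD probe, also brightest with gefitinib, read 74.3 to 91.9 on the controls, 157 and 237 with luteolin, 853 and 502 with gefitinib, and 283 and 241 with L+G. One ERN1 probe read 203 to 365 on the controls, 1060 and 1104 with luteolin, 570 and 312 with gefitinib, and 591 and 422 with L+G, also brightest with luteolin, whereas another read 234 to 358 on the controls, 276 and 270 with luteolin, 298 and 455 with gefitinib, and 364 and 325 with L+G with overlapping groups.

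In other genes the probes also disagreed. The other WFIKKN2 probe read 7.46 to 22.2 on the controls, 4.21 and 5.74 with luteolin, 4.41 and 4.3 with gefitinib, and 13.3 and 9.33 with L+G, detected on 1 control array and on no drug-treated array. One other ALB probe was off on all 10 arrays, and another was detected on 2 control arrays and no drug-treated array, reading 5.44 to 44.8 on the controls, 4.4 and 6.11 with luteolin, 4.66 and 3.78 with gefitinib, and 3.41 and 3.53 with L+G. One other ANGPT2 probe and the other IRX5 probe were likewise on 1 control array and no drug-treated array. The other probe of each of HLA-DMB, TRPV3, CTSW, RAG1, FAM46C, C15orf51, ECAT8 and MGC13053 was off on all 10 arrays. That of HLA-DMB read 5.8 and 4.37 with gefitinib, and 4.3 and 3.87 with L+G. For STMN2 the other probe was on 3 control arrays and all 6 drug-treated arrays, and read 30.3 to 46.2 on the controls, 41.8 and 40.4 with luteolin, 123 and 73 with gefitinib, and 71.1 and 106 with L+G. The TTN member probe, annotated to the short novex-3 form of titin, read 10.1 to 21 on the controls, 26.7 and 13 with luteolin, 84.2 and 96.9 with gefitinib, and 19.8 and 19 with L+G. The other TTN probe read 132 to 301 on the controls, 170 and 157 with luteolin, 27.6 and 81.7 with gefitinib, and 45.4 and 46.9 with L+G, so that it was dimmer on all gefitinib-labelled and L+G-labelled arrays than on any control array. PARP11 had another probe on all 4 controls, at 31.1 to 42.6 on the controls, 50.5 and 27.9 with luteolin, 13.7 and 10.3 with gefitinib, and 22.5 and 5.71 with L+G. KLC3, a kinesin light chain, read at most 36.4 with its member probe, while its other probe read 135441 to 146915 on the controls, 119396 and 111666 with luteolin, 63608 and 50002 with gefitinib, and 118730 and 101667 with L+G. GRINL1A, MRPL43, ZNF33A and ZNF44 likewise had other probes above background on every array, so their member probes do not describe the gene as a whole.

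The drug-treated pairs were next compared with each other with limma over 28776 probes, and a member counted as called where the adjusted p lay under 0.05 with at least a 2-fold difference. The rule treats the 6 drug-treated arrays alike, yet it admits genes that are off on a whole pair, and such a gene had to be brighter on the others. For these genes the values and lower limits are descriptions, and an adjusted p is printed only for members detected on all arrays of both groups. Counts over all members stand beside the share of all probes for reference, and nothing is read from the excess. Differences are log2 values of scaled signal with the standard error.

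Between luteolin and gefitinib, 53 members were lower and 8 higher with luteolin. The shares were 51.5% and 7.77% of the members, beside 18.3% and 17.2% of all probes tested, 35.5% in either direction. With normexp background correction the split was 49 lower and 0 higher. The median difference was -1.51 over the members and -0.16 over all probes. On signals as deposited the medians were -0.72 and 0.63. Probes off on all 10 arrays, which gave no detected signal, had a median of -0.51 after scaling and 0.28 as deposited, so scaling by itself lowered dim probes on the luteolin-labelled arrays relative to the gefitinib-labelled ones.

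Of the 14 members detected on all 4 of these arrays, 4 were lower and 1 higher with luteolin, beside 32.6% called in either direction among probes so detected. KLF6 differed by -2.80 ± 0.57 (adjusted p = 0.00366), and its brightest other probe ran the same way. RHOB differed by -1.94 ± 0.44 (adjusted p = 0.00605), SYNPO2L by -1.48 ± 0.44 (adjusted p = 0.0192) and C21orf84 by -1.48 ± 0.43 (adjusted p = 0.0175). ERN1 was the higher member, at 1.13 ± 0.37 (adjusted p = 0.0281). The difference of SPDYA, -0.95 ± 0.67 (adjusted p = 0.249), was not called. Fitted on probes detected in both groups alone, 7 members were called, 6 lower and 1 higher.

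Members off on both luteolin-labelled arrays were brighter with gefitinib by a lower limit that ran from 1.69-fold to 48.1-fold over 40 called members, with a median of 4.16-fold. On signals as deposited 39 of them had a limit over 1, with a median of 2.48-fold. KCTD4 was at least 48.1-fold brighter after scaling and at least 27.9-fold as deposited. PTAFR was at least 29.3-fold and 16.9-fold brighter on these scales, and WFIKKN2 at least 13.7-fold and 7.92-fold. GAL3ST1 was at least 11.3-fold and 6.53-fold brighter, AHSG at least 11.1-fold and 6.44-fold, and CCL20 at least 10.2-fold and 5.88-fold.

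In the other direction, UNC5CL was at least 2.44-fold brighter with luteolin after scaling and at least 4.21-fold as deposited, and FUT3 at least 2.73-fold and 4.72-fold. PARP11, also off with gefitinib, had no limit above 1. With normexp none of these 3 was called, and PARP11 turned to -0.23.

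**Figure D4:**
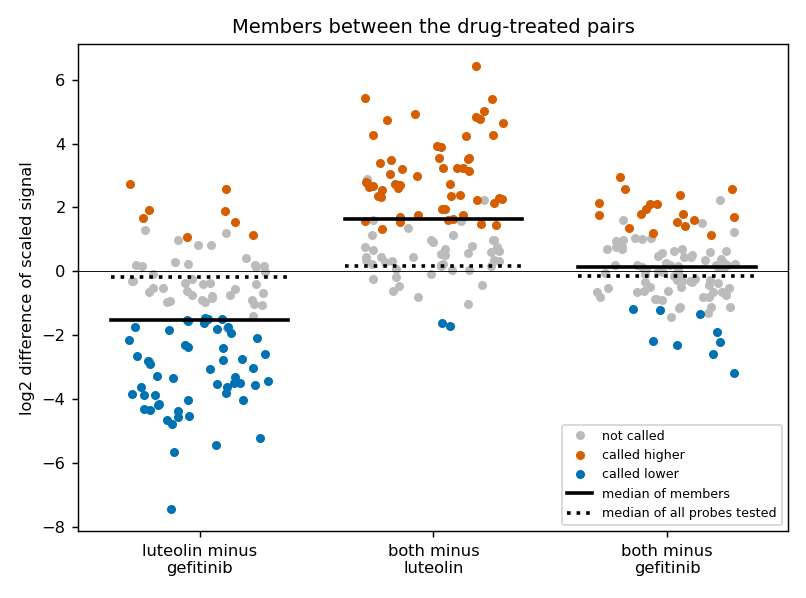
Log2 difference of scaled signal between drug-treated pairs, by labelled group, for the 103 members and for all probes tested. Members lie mostly below 0 for luteolin minus gefitinib (median -1.51), above 0 for L+G minus luteolin (median 1.63) and on both sides of 0 for L+G minus gefitinib (median 0.15).

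Between L+G and luteolin, 56 members were higher and 2 lower with L+G. These were 54.4% and 1.94% of the members, beside 11.1% and 9.26% of all probes, 20.3% in either direction. With normexp the split was 47 and 0. The median difference was 1.63 over the members and 0.16 over all probes, and 0.94 and -0.53 on signals as deposited. Of the 30 members detected on all 4 of these arrays, 8 were higher and 0 lower by limma, beside 17.9% called in either direction among probes so detected. They were C12orf28, MGC39715, ALB, OSAP, IGFALS, ZNF33A, ZNF179 and TSSK4. ALB differed by 2.39 ± 0.45 (adjusted p = 0.00477), OSAP by 2.28 ± 0.49 (adjusted p = 0.00812), IGFALS by 1.94 ± 0.47 (adjusted p = 0.013) and ZNF33A by 1.77 ± 0.23 (adjusted p = 0.00105).

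Among members off with luteolin, FAP was at least 19.9-fold brighter with L+G after scaling and at least 12.3-fold as deposited. PTAFR was at least 23.6-fold and 14.6-fold brighter, SLC6A13 at least 20.4-fold and 12.6-fold, and ADRBK2 at least 10.9-fold and 6.72-fold. The 2 lower members were ERN1, detected on 1 L+G-labelled array, and TRPV3, off on both and at least 1.57-fold dimmer after scaling and 2.55-fold as deposited. Neither was called with normexp, under which TRPV3 stood at 0.016.

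Between L+G and gefitinib, 18 members were higher and 9 lower with L+G, 17.5% and 8.74% beside 16.7% and 9.68% of all probes, 26.3% in either direction. These shares were near the background. The balance rested on single arrays, with 11 higher and 25 lower without L+G replicate 2 and 10 and 12 without gefitinib replicate 2. It was 11 and 12 with slides as a block. Of the 66 members detected on all 4 of these arrays, 3 were higher and 7 lower, beside 23.1% called in either direction among probes so detected.

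FAP was higher by 2.39 ± 0.32 (adjusted p = 0.000672), SLC6A13 by 1.53 ± 0.51 (adjusted p = 0.0378) and C12orf28 by 1.75 ± 0.58 (adjusted p = 0.0372). The lower members were KCTD4, with -3.17 ± 0.67 (adjusted p = 0.00537), KLF6, with -2.57 ± 0.57 (adjusted p = 0.00706), TTN, AHSG, RHOB, SOST and MGC24125. PTAFR, at -0.31 ± 0.63 (adjusted p = 0.698), was not called, and the 95% interval of a member reached a median of 1.13 to either side, so that a difference of 2-fold could not be seen for many of them. Of those not detected on all 4 arrays, UNC5CL was off with gefitinib and at least 2.81-fold brighter with L+G after scaling and at least 3-fold as deposited. PAGE5 and ALB, each detected on 1 gefitinib-labelled array, were also higher with L+G.

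The arrays lay on 3 slides, and slide 2 held replicate 1 of DMSO and of all 3 drug-treated pairs. Within it the members, called or not, had a median difference of -1.99 between luteolin and gefitinib. It was 1.40 between L+G and luteolin, and -0.78 between L+G and gefitinib. Between L+G and luteolin the median within slide 3, which held replicate 2 of both, was 2.16. These arrays also made the calls, so the values describe the slides and do not test them. The gefitinib-labelled replicate 2 lay on another slide with no other drug-treated array, and the part of the slides was not tested.

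The spread between replicates was wide. The median SD over members was 0.38 with luteolin, 0.60 with gefitinib and 0.75 with L+G on the log2 scale, against 0.14, 0.18 and 0.25 over all probes tested. Between DMSO and 0 h, the rule had required every member probe to be off on all 4 arrays, so that few calls could arise. By limma 0 members were called beside 0.0313% of all probes, and 3 members (ANGPT2, SLC6A13 and TMEM178) had an unadjusted p under 0.05, beside 6.04% of all probes.

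By the names on the scanner files, these contrasts change their subject. What is given above as L+G minus luteolin would be luteolin minus gefitinib, with 56 members higher and 2 lower with luteolin. The contrast between L+G and gefitinib would be luteolin against L+G, and that between luteolin and gefitinib would be gefitinib against L+G. The signals themselves are the same under both readings, and so is the pair on which each gene was off.

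Gene lists chosen with earlier results known set the members beside related genes. Of 21 immediate early genes on the array, 19 were tested, and 9 were lower and 4 higher with luteolin than with gefitinib. Among all probes tested, 18.3% were lower and 17.2% higher in that contrast. FOS, a partner in the AP-1 factor, differed by -4.87, EGR1 by -4.11 and ARC, a neuronal activity gene, by -5.63, while KLF4 differed by 2.22. KLF6 was the 1 member on that list, of 4 listed genes with a probe off on the controls. Of 16 tested targets of ATF4 and CHOP, the factors of the amino acid and unfolded protein response, 13 were higher and 1 lower with luteolin. Of the listed targets, 2 had a probe off on the controls and 0 were members. Between L+G and luteolin, 0 targets were higher and 8 lower with L+G, beside 11.1% and 9.26% of all probes. Between L+G and gefitinib, 5 were higher and 1 lower, beside 16.7% and 9.68%. The immediate early genes had 3 higher and 1 lower, then 4 and 7.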

How the data were processed

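Single-color Cy3 arrays of PC-3 RNA (10 arrays, 5 groups of 2) were scanned and read with Agilent Feature Extraction. The deposited intensity values are processed signals, from which the authors' software, per the file headers, had subtracted background and spatial trends and replaced low values by surrogates, with no normalization between arrays. The deposited value table held the same signals on all 45015 spots of each array. Replicates were not pooled.

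Here, spots flagged as outliers were left out, replicate spots were merged as the mean of their log2 signals, and each array was scaled by its 75th percentile. A probe was off when under 0.5 of its spots were flagged well above background. Where several probes of a gene met the rule, the brightest represented it. A probe entered the tests when both arrays of at least 1 group detected it (28776 of 41000). Groups were compared with limma 3.58.1 in R 4.3.3 in 1 fit of all 10 arrays, with Benjamini-Hochberg adjustment over the probes tested, and the methods were checked on simulated data. A lower limit set the dimmer pair at the lowest signal well above background on each array, or at its own signal where higher. The number of arrays limits the precision.

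The members and lists were chosen with earlier results of these data known. Named genes were those with the 14 highest lower limits, the 3 largest called differences in each direction and contrast, members on the fixed lists, genes on either side of the threshold, and genes with other bright probes. Other genes, and the grouping by role, were chosen after their values were seen. Alternatives covered the rule, flags, scaling, background correction (normexp with an offset of 50), slides, the replicate block, left-out arrays, the methods' t-test, and the treatments in the file names. Some gene symbols are not reported here. Samples with the same replicate number had correlated deviations (r over 0.1) in 6 of 10 pairs of groups, with r from -0.10 to 0.29, and slides partly follow these numbers. Since not every pair passed 0.1, the arrays were not treated as paired.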

Additional observations from a re-analysis of the deposited data

How the results depend on the processing

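The number of members, and which genes they were, depended on the rule. It was 103 as reported, 37 with at least 5 and 11 with all 6 drug-treated arrays required, 216 with at least 3, and 195 with at most 1 control array allowed. With the weaker flag, positive and significant, in place of well above background it was 123, and only 13 of those were among the 103. It was 10 when members also had to miss the weaker flag on every control array, a setting added after the data had been seen. Leaving out 1 array gave 39 to 158, with 39 and 45 without L+G replicates 1 and 2, 47 and 56 without gefitinib replicates 1 and 2, and 158 without 0 h replicate 1. The median lower limit was 1.31 and fell to 0.58 on unscaled signal.

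With only probes detected on all arrays of both groups, called members numbered 7 for luteolin minus gefitinib, 8 for L+G minus luteolin and 13 for L+G minus gefitinib. The methods' t-test called 30, 6 and 9 at its unadjusted threshold and 0, 0 and 0 after Benjamini-Hochberg. Under the file names, L+G minus luteolin had 27 (9 higher, 18 lower) and L+G minus gefitinib 61 (53 higher, 8 lower). With normexp, L+G minus gefitinib had 8, PARP11 turned to -0.23 between luteolin and gefitinib, and TRPV3 to 0.016 between L+G and luteolin. The counts under the file names are those of other labelled contrasts under new names. Members detected on all arrays of both groups numbered only 14, 30 and 66 in these contrasts. The cause of the other changes was not tested.

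Without scaling, added after the data had been seen, the splits were 13 higher and 41 lower for luteolin minus gefitinib, 45 and 6 for L+G minus luteolin, and 19 and 8 for L+G minus gefitinib. With normexp the splits of the first contrasts were 0 and 49, then 47 and 0. For L+G minus gefitinib, quantile scaling gave 16 and 14, and slides as a block 11 and 12. Leaving out 1 array gave 55 to 62, 43 to 60 and 22 to 36 called members. For L+G minus gefitinib, 11 were higher and 25 lower without L+G replicate 2, and 10 and 12 without gefitinib replicate 2. With the replicate block, 61, 58 and 29 members were called. Between DMSO and 0 h, 0 members were called by limma under every setting run. Of 289 values of named genes under alternatives, 278 kept their call and direction. These include settings that could not change the difference, such as leaving out an array of neither group or adding the replicate block. They do not include the file names, unscaled signal or the methods' t-test, so the count is not a measure of how firm the values are. Signals near the detection floor limit what 2 arrays a group can show.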
